A study of Homo sapiens with 6 samples.

Results

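The G2 and mitosis genes are 49 genes that dividing cells use to enter, run and leave mitosis. They were taken by symbol as a given list of mitotic cyclins, kinases, spindle and kinetochore genes, and all 49 were found among the 23524 genes of the FPKM table. Their levels were compared in Hep G2 cells, a human hepatocellular carcinoma (HCC) line, that carried the empty vector (control, 3 libraries) or the EFTUD2 gene (EFTUD2, 3 libraries). EFTUD2 is a GTPase of the spliceosome. The transduced cells were selected in puromycin for stable EFTUD2 overexpression, and no drug, dose or time course separated the groups. The comparison asks how the mitotic program stood in cells with more EFTUD2. The sources used here do not say whether the 3 libraries of a group came from separate cultures or which promoter drove the transgene, so each p-value measures the spread between these libraries only. The level of EFTUD2 itself was 41.1, 54.4 and 46.3 FPKM with the empty vector (replicates 1 to 3) and 107, 103 and 109 FPKM with EFTUD2.

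The genes encode the machinery that acts in a fixed order. Cyclins A and B switch on CDK1, CDC25 phosphatases remove its inhibitory phosphates, and Aurora and Polo kinases build the spindle with kinesin motors. Kinetochores tie chromosomes to microtubules, the spindle checkpoint holds the anaphase-promoting complex (APC/C) until every chromosome is attached, and the APC/C with CDC20 then marks securin and cyclin B for destruction. Transcription of these genes peaks in G2 and mitosis. It is held down earlier in the cycle by the DREAM complex, which reads a cell cycle genes homology region (CHR, commonly TTTGAA or TTTAAA), and it is switched on later by B-MYB and FOXM1, while NF-Y binds CCAAT boxes in the same promoters. In bulk RNA, a larger share of cells in G2 or mitosis cannot be told apart from more mRNA per such cell.

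These promoter letters were looked up because the genes are known to share them. RefSeq promoters of assembly GRCh38.p14, 250 bases before to 50 after the start, were matched by Entrez gene number for 40 of the 49 genes. This gave 51 promoters, since some genes had more than 1 entry. The genes without an entry were ANP32E, AURKA, BIRC5, BUB3, FOXM1, HMGB2, TPX2, TTK and UBE2C. CCAAT as well as TTTGAA and TTTAAA were searched on both strands. Neighbouring matches may overlap, as the CCAAT pair of PTTG1 does in the letters AT. TTTGAA was in 62.7% of the 51 promoters against 15.2% of all 35116 promoters, and TTTAAA was in 31.4% against 12.2%. CCAAT was in 70.6% against 34.6%, and a CCAAT together with TTTGAA or TTTAAA was in 58.8% against 9.27%. In 53 promoters of 46 S phase and DNA replication genes, a CCAAT was about as common (60.4%), and TTTGAA was in 3.77%.

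The 100 bases before the start are shown for 7 genes, namely those with the 5 largest estimated differences whose promoters were matched and the well-known CCNB1 and PLK1. Capitals mark CCAAT and TTTGAA or TTTAAA on either strand (read as ATTGG and TTCAAA on the other), 5′ to 3′ in the direction of transcription. The positions are CKS2 (chr9:89311095-89311194, plus strand), PTTG1 (chr5:160421755-160421854, plus strand), CDC25B (chr20:3796210-3796309, plus strand), CDK1 (chr10:60778378-60778477, plus strand), CENPA (chr2:26785956-26786055, plus strand), CCNB1 (chr5:69167050-69167149, plus strand) and PLK1 (chr16:23678789-23678888, plus strand).
CKS2: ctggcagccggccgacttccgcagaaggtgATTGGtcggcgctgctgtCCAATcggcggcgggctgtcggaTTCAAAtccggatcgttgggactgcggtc
PTTG1: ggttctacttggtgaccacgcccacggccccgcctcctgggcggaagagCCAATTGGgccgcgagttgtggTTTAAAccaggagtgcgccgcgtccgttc
CDC25B: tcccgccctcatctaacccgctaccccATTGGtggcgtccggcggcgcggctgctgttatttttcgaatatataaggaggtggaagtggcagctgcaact
CDK1: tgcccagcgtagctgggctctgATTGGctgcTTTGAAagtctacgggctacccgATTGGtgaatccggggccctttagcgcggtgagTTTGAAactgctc
CENPA: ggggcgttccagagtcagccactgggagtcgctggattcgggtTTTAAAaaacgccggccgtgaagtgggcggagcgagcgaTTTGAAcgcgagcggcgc
CCNB1: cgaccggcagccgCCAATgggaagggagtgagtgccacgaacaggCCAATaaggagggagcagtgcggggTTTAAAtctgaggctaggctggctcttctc
PLK1: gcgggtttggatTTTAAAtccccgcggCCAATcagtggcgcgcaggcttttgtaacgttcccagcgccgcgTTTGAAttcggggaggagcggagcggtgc
In CKS2, PTTG1, CCNB1 and PLK1 a CHR match began 29 or 30 bases before the start, with a CCAAT further upstream. Over the 51 promoters, TTTGAA or TTTAAA began between 45 and 10 bases before the start in 19 (37.3%), against 3.74% of all promoters and 3.77% of the S phase ones. That window was chosen after the positions were seen. CDC25B had a CCAAT and no CHR letters in this stretch.

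The same stretch is shown for the 3 genes with the lowest estimates, CKAP2 (chr13:52455888-52455987, plus strand), KIF20B (chr10:89701490-89701589, plus strand) and MKI67 (chr10:128126424-128126523, minus strand).
CKAP2: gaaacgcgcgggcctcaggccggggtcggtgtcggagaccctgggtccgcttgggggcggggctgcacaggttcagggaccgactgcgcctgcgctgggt
KIF20B: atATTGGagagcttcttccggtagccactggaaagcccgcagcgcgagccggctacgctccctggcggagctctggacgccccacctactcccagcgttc
MKI67: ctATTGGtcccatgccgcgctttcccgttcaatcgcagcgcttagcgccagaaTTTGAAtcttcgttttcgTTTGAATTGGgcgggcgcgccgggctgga
CKAP2 had none of the letters in these bases, KIF20B had a CCAAT only, and MKI67 had a CCAAT at each end of a pair of TTTGAA. Genes with and without the letters had close medians. The 35 genes with TTTGAA or TTTAAA anywhere in the promoter had a median log2 fold change of 0.10, and the 5 without (AURKB, BUB1, CCNA2, CKAP2 and TACC3) had 0.09.

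FPKM are fragment numbers scaled to transcript length and library size. Groups were compared on log2(FPKM + 1), which makes changes of low genes look smaller. All 49 genes passed the filter on low values, an average of 0.1 FPKM or more. Their control means ran from 3.60 FPKM for CENPE to 91.0 FPKM for HMGB2, with PLK1 (88.5), CKS2 (85.9) and TOP2A (76.1) next to the top. No gene of the 49 passed an adjusted p under 0.05 in limma's test over 17224 genes, nor did any gene at all (0.0% called higher and 0.0% called lower). At an unadjusted p under 0.05, 5 of the 49 were higher with EFTUD2 (CDC25B, CDK1, KIF2C, CENPA and TOP2A) against 4.4% of all genes tested. At the same p, 0 of the 49 were lower against 7.9%. With 3 libraries a group, the smallest two-sided p of an exact permutation test is 0.1.

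The estimates of the 49 genes leaned up while those of all genes leaned down. Of the 49 estimates, 35 were above 0 (71.4%), against 37.3% of all genes tested, with medians of 0.08 and -0.07 on the log2 scale. Scaling moved this count to 42 with median of ratios, to 41 with quantile normalization and to 27 with a common sum per library, and the median of all genes was 0.0058 with median of ratios. With each library's trend on transcript length removed, which also takes out its overall shift from the control mean, the count was 44. In 12 genes every EFTUD2 library lay above every control (24.5% of the 49, background 7.93%, or 6.95% among genes averaging 1 FPKM or more). In 2 genes, BIRC5 and CKAP2, every EFTUD2 library lay below every control (background 19.4%, or 23.4% at 1 FPKM). The genes are co-regulated and share their libraries, so these counts are descriptions and the 49 are not 49 independent readings.

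**Figure D1:**
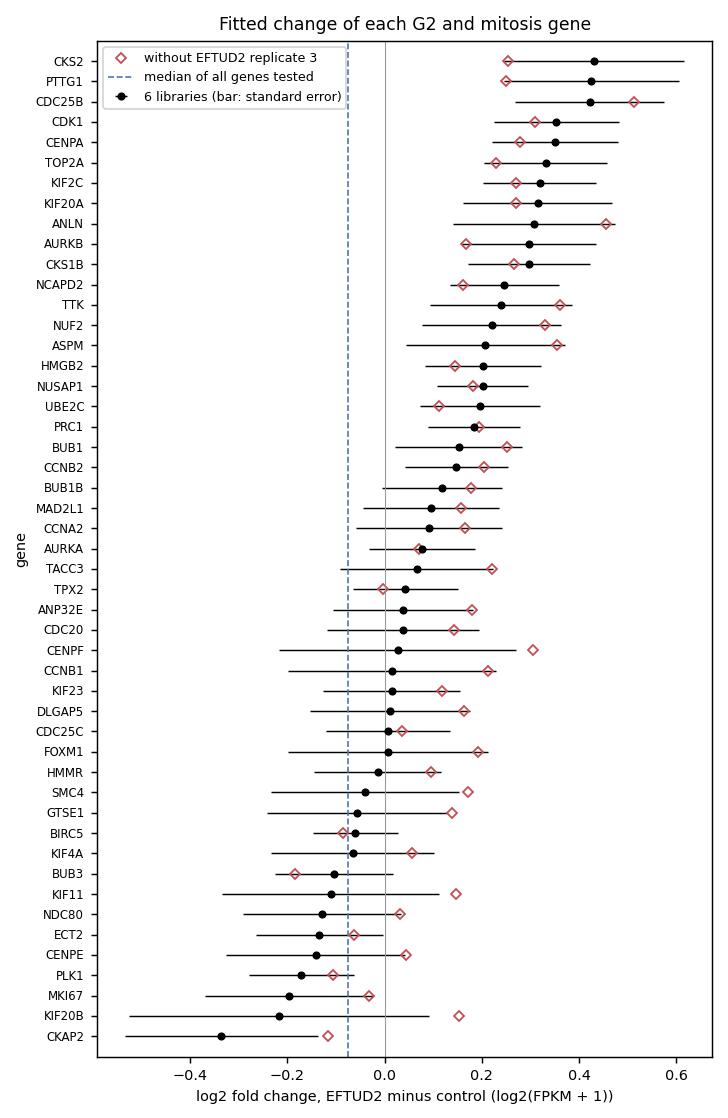
Log2 fold change (EFTUD2 minus control) of each of the 49 genes with its standard error from limma (3 libraries a group), and the same without EFTUD2 replicate 3 (diamonds). The filled points run from -0.34 (CKAP2) to 0.43 (CKS2), and the dashed line marks the median of all genes tested, -0.07.

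The EFTUD2 libraries did not behave alike. Taken as log2(FPKM + 1) minus the mean of the controls, the median over the 49 genes was -0.09, 0.12 and -0.03 in control replicates 1 to 3 and 0.15, 0.20 and -0.03 in EFTUD2 replicates 1 to 3. On the values as deposited, EFTUD2 replicates 1 and 2 thus stood above all controls, by little over control replicate 2, and replicate 3 stood among the controls. The pooled SD of these library medians within a group was 0.12. Over all genes tested, the medians in EFTUD2 replicates 1 to 3 were -0.05, -0.04 and -0.15. With median of ratios the 49 genes had medians of 0.21, 0.25 and 0.22 in EFTUD2 replicates 1 to 3. With quantile normalization they had 0.22, 0.24 and 0.20, so the difference in median depended on the scaling. As deposited, the spread over the 49 genes was an SD of 0.13 and 0.17 in EFTUD2 replicates 1 and 2 and of 0.39 in replicate 3. Replicate 3 differed from replicates 1 and 2 over the 49 genes with an SD of 0.36 and 0.38, while replicates 1 and 2 differed with an SD of 0.10. Among the controls, replicate 1 was the lowest for 33 genes and replicate 2 the highest for 41, so the controls also differed from each other in a shared direction.

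The counts by library showed the same split. In EFTUD2 replicate 1, 25 genes were above every control and 4 were below every control, and in replicate 2 the counts were 36 and 3. In replicate 3, 16 were above and 21 below. Over all genes tested, 20.4%, 23.7% and 25.8% were above every control in EFTUD2 replicates 1 to 3, and 34.5%, 34.8% and 51.3% were below. In 24 genes replicates 1 and 2 were both above every control. In replicate 3, 12 of these 24 were again above every control, 5 lay within the controls (CCNB2, BUB1, TTK, NUF2 and ANLN) and 7 lay below every control (TACC3, CENPF, KIF11, ASPM, HMMR, SMC4 and ANP32E). The summed level of the 49 genes hid this split, with control sums of 1437, 1692 and 1529 FPKM and EFTUD2 sums of 1683, 1752 and 1723 FPKM.

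**Figure D2:**
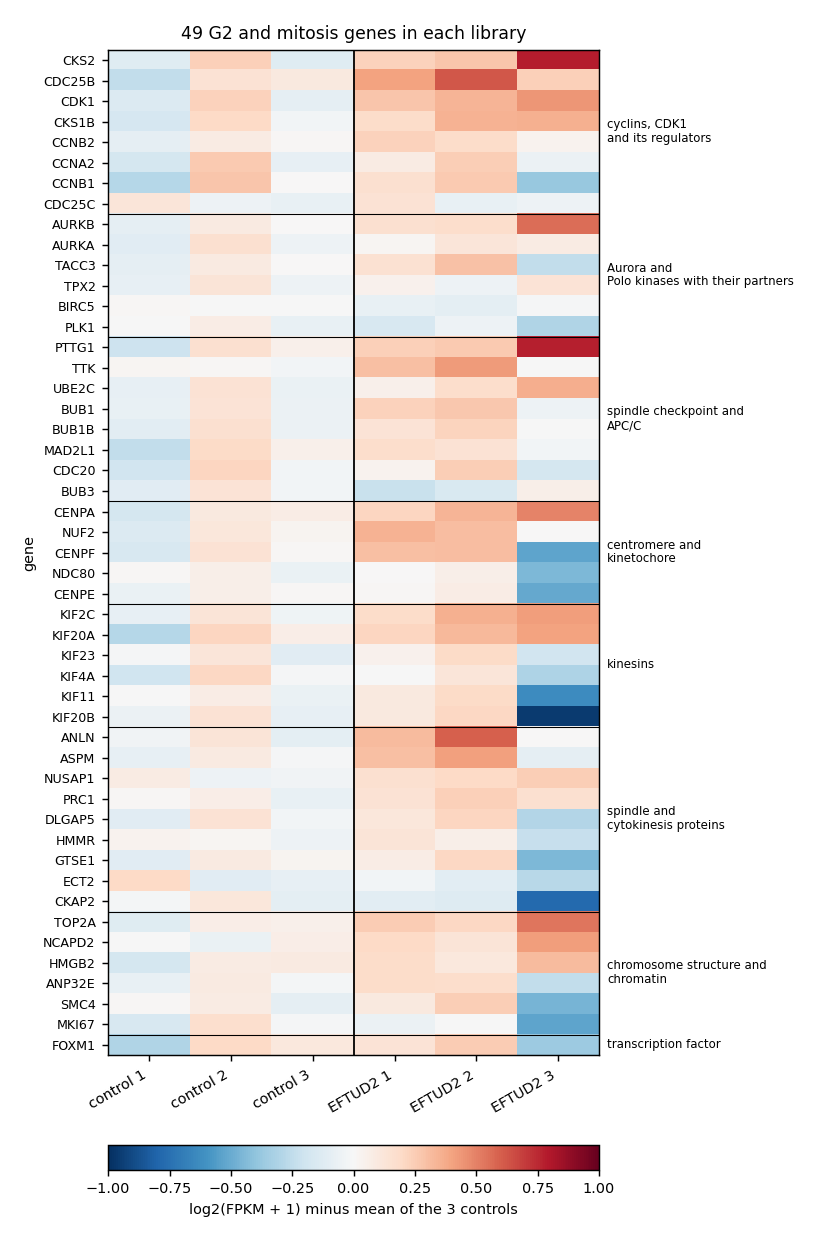
Each row is 1 of the 49 genes, grouped by role, and each column a library, colored by log2(FPKM + 1) minus the mean of the 3 controls. EFTUD2 replicates 1 and 2 are mostly red (42 and 41 genes above the control mean), and replicate 3 holds the darkest red, CKS2 and PTTG1, and the darkest blue, KIF20B and CKAP2.

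Without EFTUD2 replicate 3, 24 of the 49 genes had groups that did not overlap and were higher (background 14.7%) and 3 were lower (background 25.2%). The median log2 fold change was then 0.17. No gene of the 49 passed an adjusted p under 0.05 in that fit, where 0.691% of all genes were called higher and 0.0697% lower. Without control replicate 2 the count of genes higher without overlap was 21 (background 9.75%). When libraries were weighted by their fit, limma's array weights called CDC25B, ANLN, TTK and KIF2C higher (4 of 49, background 5.32%). These weights did not converge. They were 0.93, 1.77 and 27.2 in control replicates 1 to 3 and 0.038, 2.25 and 0.26 in EFTUD2 replicates 1 to 3. That fit thus rested mostly on control replicate 3 and EFTUD2 replicate 2. With weights estimated gene by gene the calls were CDC25B, ANLN, TTK and NUF2 (4 of 49, background 4.21%).

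**Figure D3:**
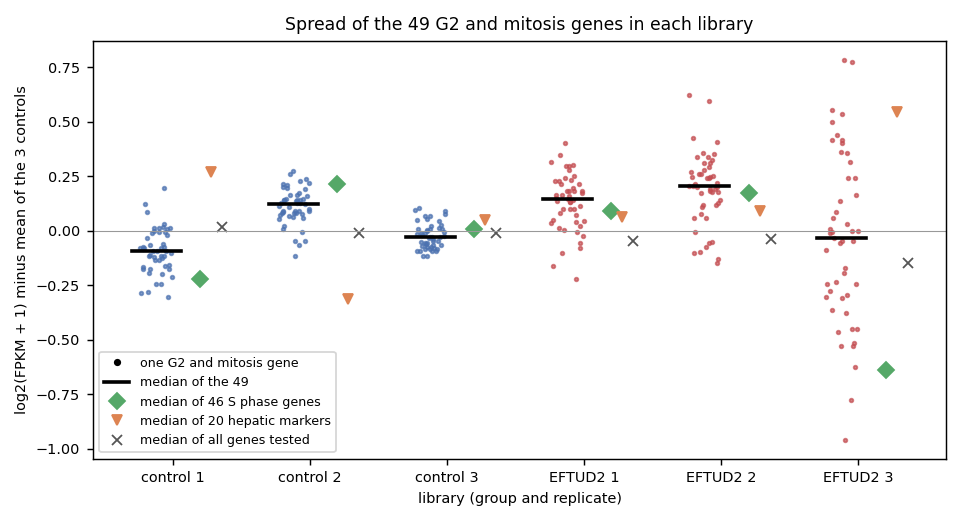
Small dots are the 49 genes in each of the 6 libraries, as log2(FPKM + 1) minus the control mean, with their median as a bar and the medians of 46 S phase genes, 20 hepatic markers and all genes tested beside them. In EFTUD2 replicate 3 the dots spread from -0.96 to 0.79, and the S phase median lies at -0.64 and the hepatic median at 0.55.

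The cyclins, CDK1 and its regulators had the highest median of the role groups, 0.22, and all 8 estimates were above 0. CKS2 (Entrez gene 1164), a small subunit that docks CDK1 to its substrates, had 78.3, 101 and 78.5 FPKM as control values and 100, 104 and 148 FPKM with EFTUD2. Control replicate 2 reached just above EFTUD2 replicate 1, so the groups overlapped, and replicate 3 carried the rest of the difference. The log2 fold change was 0.43 (standard error 0.19, adjusted p = 0.402 from limma), and 0.25 without EFTUD2 replicate 3. Its paralog CKS1B (Entrez gene 1163) stood at 55.6, 71.8 and 61.2 FPKM against 71.0, 79.99 and 80.44 FPKM. There too control replicate 2 overlapped EFTUD2 replicate 1, and the estimate was 0.30 (standard error 0.13).

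CDC25B (Entrez gene 994), the phosphatase that starts CDK1 activation in G2, had 28.7, 37.9 and 36.6 FPKM as control values and 45.5, 53.1 and 40.5 FPKM with EFTUD2. Every EFTUD2 library exceeded every control, and replicate 3 was the lowest of them. The log2 fold change was 0.42 (standard error 0.15, adjusted p = 0.402 from limma), and over all settings the adjusted p ran from 0.0467 to 0.679. CDK1 (Entrez gene 983), the kinase that drives entry into mitosis, was at 27.7, 35.96 and 28.58 FPKM against 37.3, 38.9 and 41.8 FPKM. The groups did not overlap, by 1 FPKM or so over control replicate 2, and the estimate was 0.35 (standard error 0.13, adjusted p = 0.402 from limma).

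The cyclins themselves had smaller estimates, and their groups overlapped. CCNB1 (Entrez gene 891, cyclin B1) was at 38.6, 57.3 and 47.4 FPKM against 53.0, 56.7 and 36.1 FPKM, with EFTUD2 replicate 3 below every control. Its estimate was 0.02 (standard error 0.21), and 0.21 without replicate 3. CCNB2 and CCNA2 had estimates of 0.15 and 0.09. CDC25C, a phosphatase paralog of CDC25B, had 0.01, with levels from 6.63 to 7.86 FPKM in all libraries.

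**Figure D4:**
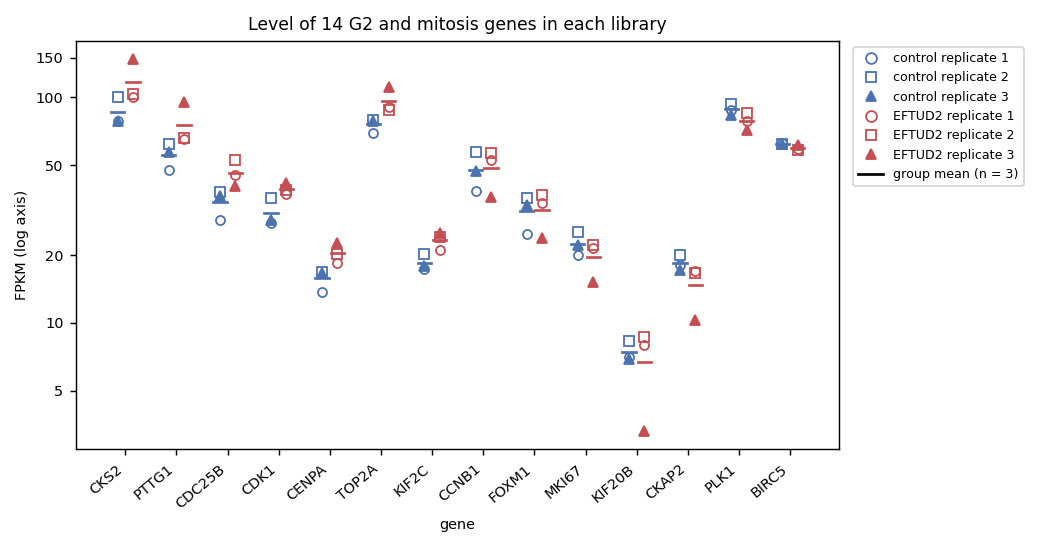
FPKM of 14 of the genes on a log axis in each library, controls in blue and EFTUD2 in red, with a symbol for each replicate number and a bar at the group mean (n = 3). In PTTG1, CDC25B, CDK1, CENPA, TOP2A and KIF2C every EFTUD2 library lies above every control, and in CKAP2 and BIRC5 every one lies below. The triangle of EFTUD2 replicate 3 lies below every control in CCNB1, FOXM1, MKI67, KIF20B, CKAP2, PLK1 and BIRC5.

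The Aurora and Polo kinases with their partners had a median of 0.05, and 4 of 6 estimates were above 0. AURKB (Entrez gene 9212), the kinase of the chromosomal passenger complex that corrects wrong attachments, was at 33.1, 37.8 and 35.4 FPKM against 39.7, 40.03 and 52.44 FPKM. The groups did not overlap, and replicate 3 was the highest. The log2 fold change was 0.30 (standard error 0.14, adjusted p = 0.409 from limma). BIRC5 (survivin), a partner of AURKB in that complex, was among the most even of the 49 genes, with 62.9, 62.0 and 62.0 FPKM against 59.0, 58.2 and 61.8 FPKM. Its groups did not overlap in the other direction, by 0.1 FPKM or so, and its estimate was -0.06. AURKA (Entrez gene 6790), the kinase of the spindle poles, was at 58.2, 70.7 and 60.8 FPKM against 64.0, 68.5 and 66.9 FPKM, an estimate of 0.08 with overlapping groups. PLK1 (Entrez gene 5347), the Polo kinase of mitotic entry and cytokinesis, was at 88.2, 93.4 and 84.0 FPKM against 78.9, 85.5 and 71.6 FPKM. Replicate 2 overlapped the controls, and the estimate was -0.17 (standard error 0.11, adjusted p = 0.47 from limma).

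In the spindle checkpoint and APC/C group, 7 of 8 estimates were above 0, with a median of 0.14. PTTG1 (Entrez gene 9232), the securin that holds separase back until anaphase, was at 47.7, 62.1 and 57.2 FPKM against 65.5, 66.4 and 95.3 FPKM. Every EFTUD2 library was above every control, and replicate 3 stood well apart from the other two. The log2 fold change was 0.42 (standard error 0.18, adjusted p = 0.402 from limma), and 0.25 without replicate 3. CDC20 (Entrez gene 991), the APC/C activator of mitosis, was at 39.1, 52.4 and 44.1 FPKM against 46.1, 53.5 and 39.7 FPKM, an estimate of 0.04 with overlapping groups. BUB3 (Entrez gene 9184), which brings checkpoint kinases to kinetochores, was at 61.0, 72.9 and 64.9 FPKM against 56.5, 59.5 and 68.9 FPKM. Here replicates 1 and 2 were below every control and replicate 3 was within them, and the estimate was -0.10. TTK, the kinase at the head of the checkpoint, had 6.02 to 6.26 FPKM in the controls and 7.81, 8.61 and 6.14 FPKM with EFTUD2.

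The centromere and kinetochore genes and the kinesins had medians of -0.45 and -0.25 in EFTUD2 replicate 3, against -0.03 for all 49 genes. CENPA (Entrez gene 1058), the histone H3 variant that marks centromeres, was at 13.8, 16.9 and 16.6 FPKM against 18.4, 20.1 and 22.6 FPKM. All EFTUD2 libraries were above all controls, and the estimate was 0.35 (standard error 0.13, adjusted p = 0.402 from limma). CENPE (Entrez gene 1062), a kinetochore motor, was at 3.39, 3.78 and 3.62 FPKM against 3.63, 3.84 and 2.22 FPKM. NDC80 (Entrez gene 10403), a microtubule-binding subunit of the kinetochore, was at 9.41, 9.73 and 8.86 FPKM against 9.35, 9.76 and 6.57 FPKM. In both, replicates 1 and 2 matched the controls or nearly so and replicate 3 alone was below them. Their estimates were -0.14 and -0.13, and 0.04 and 0.03 without replicate 3.

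Among the kinesins, KIF2C (Entrez gene 11004), which takes microtubules apart at kinetochores, was at 17.4, 20.3 and 17.9 FPKM against 21.1, 24.01 and 25.01 FPKM. The groups did not overlap, and the estimate was 0.32 (standard error 0.12, adjusted p = 0.402 from limma). KIF20A (Entrez gene 10112), a motor of the central spindle, was at 10.5, 15.2 and 13.7 FPKM against 15.2, 16.5 and 17.5 FPKM, and its lowest EFTUD2 value lay 0.02 FPKM above its highest control. KIF20B (Entrez gene 9585), a motor of cytokinesis, went the other way, with 7.06, 8.29 and 6.94 FPKM against 8.02, 8.69 and 3.33 FPKM. Replicate 3 held less than any other library and decided the sign. The estimate was -0.22 (standard error 0.31), and 0.15 without replicate 3. KIF11 (Entrez gene 3832), the motor that pushes spindle poles apart, was alike, with 12.2, 12.9 and 11.6 FPKM against 13.1, 14.1 and 7.55 FPKM (estimate -0.11). KIF4A (Entrez gene 24137), a chromosome-bound motor, was at 7.73, 10.6 and 8.97 FPKM against 8.98, 9.89 and 7.10 FPKM (estimate -0.07).

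The spindle and cytokinesis proteins had a median of 0.01 and the lowest single estimate. ANLN (Entrez gene 54443), anillin of the cleavage furrow, was at 19.0, 21.3 and 18.2 FPKM against 24.4, 29.9 and 19.5 FPKM. Replicate 3 alone overlapped the controls, and the estimate of 0.31 became 0.46 without it. CKAP2 (Entrez gene 26586), a microtubule-associated protein, was at 18.1, 19.99 and 17.2 FPKM against 17.1, 16.7 and 10.3 FPKM. The groups did not overlap, by 0.1 FPKM or so for replicate 1, and replicate 3 made up most of the difference. The log2 fold change was -0.34 (standard error 0.20, adjusted p = 0.454 from limma), and -0.12 without replicate 3. NUSAP1 (Entrez gene 51203) was at 32.5, 29.5 and 29.8 FPKM against 34.4, 35.3 and 36.4 FPKM, and PRC1, which bundles the central spindle, likewise had no overlap. ECT2 (Entrez gene 1894), the exchange factor that starts the furrow, was at 27.1, 21.7 and 22.1 FPKM against 23.1, 21.8 and 19.2 FPKM. Its groups overlapped, and its estimate was -0.13.

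Of the genes of chromosome structure and chromatin, 3 of 6 had groups that did not overlap and were higher with EFTUD2 (background 7.93% of all genes tested). TOP2A (Entrez gene 7153), the topoisomerase that untangles sister chromatids, was at 69.7, 79.8 and 78.9 FPKM against 90.8, 87.7 and 111 FPKM. The estimate was 0.33 (standard error 0.13, adjusted p = 0.402 from limma). NCAPD2 (Entrez gene 9918), a condensin subunit, was at 33.3, 31.8 and 35.0 FPKM against 38.3, 36.5 and 44.8 FPKM, and HMGB2 (Entrez gene 3148), a DNA-bending chromatin protein, at 80.2, 96.2 and 96.8 FPKM against 103, 97.9 and 113 FPKM. All 3 were highest in EFTUD2 replicate 3. MKI67 (Entrez gene 4288), whose protein Ki-67 is the usual marker of cycling cells, was at 19.9, 25.4 and 22.2 FPKM against 21.5, 22.3 and 15.2 FPKM. EFTUD2 replicates 1 and 2 lay within the controls and replicate 3 below them, an estimate of -0.20 (standard error 0.17, adjusted p = 0.579 from limma), and -0.03 without replicate 3. SMC4, the condensin partner of NCAPD2, was below every control in replicate 3 (11.9 FPKM against 15.8 to 17.9 FPKM), while NCAPD2 was above every control there.

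FOXM1 (Entrez gene 2305), the transcription factor that switches on many of these genes, was at 24.9, 35.7 and 33.4 FPKM against 34.1, 37.0 and 23.8 FPKM. The groups overlapped, replicate 3 was the lowest library of all, and the estimate was 0.01 (standard error 0.21). CKS1B, CKS2, PTTG1 and HMGB2 have near-identical copies or pseudogenes in the genome, and how reads shared with them were assigned is not given in the sources used here, so their levels are less certain.

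Which genes were up and which were down in EFTUD2 replicate 3 moved with transcript length. Of the 10 genes whose longest coding transcript was under 2000 bases, 9 were above the control mean of log2(FPKM + 1) in that library. Their median was 0.40 over the 10 genes, and NUF2 was above by only 0.0002. Of the 27 genes from 2000 to 4500 bases, 8 were above it (median -0.06), and of the 12 genes over 4500 bases, 4 were above it (median -0.28). In EFTUD2 replicate 2 the medians of these length classes were 0.27, 0.20 and 0.20. Over all protein-coding genes averaging 1 FPKM or more, replicate 3 had medians of -0.22, -0.28 and -0.24 in the 3 classes, which followed no such order. Spearman's rho of length with the value in replicate 3 was -0.46 over the 49 genes and -0.01 over those 11253 genes, as a description across genes that share 1 library. In replicate 2 it was -0.13 over the 49 genes and -0.20 over the 11253, where the medians of the classes were 0.01, -0.05 and -0.10. GC content also went with the value in replicate 3 over the 49 genes (rho 0.345), and less so over all those genes (rho 0.08). TOP2A and NCAPD2, with 5758 and 5548 bases, were exceptions. BUB3 (7828 bases) and ANLN (4787 bases) were also above the control mean, by 0.058 and 0.0073. CDC20 (1777 bases) was below it, at -0.17. The classes were chosen after the values were seen, and the part of length or GC content in the split was not tested.

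**Figure D5:**
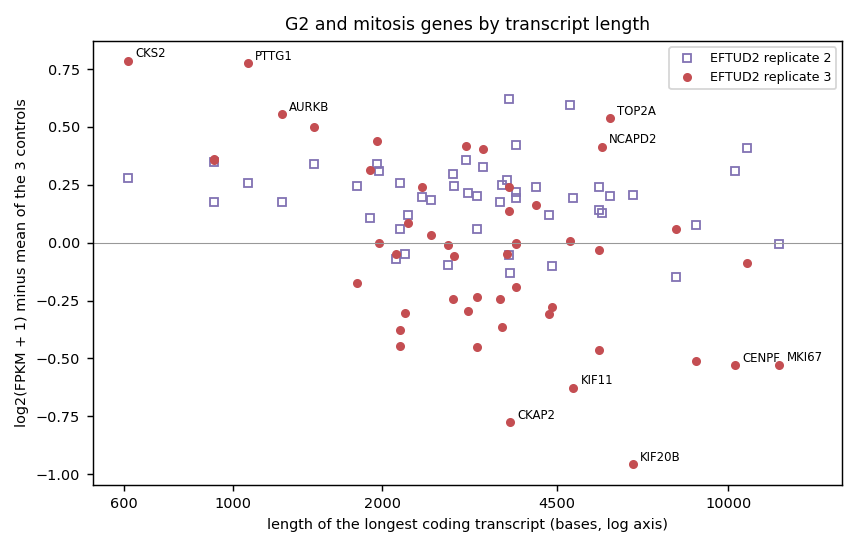
Length of the longest coding transcript of each of the 49 genes (log axis, bases) against log2(FPKM + 1) minus the control mean in EFTUD2 replicate 2 (squares) and replicate 3 (filled circles). In replicate 3, 9 of the 10 genes under 2000 bases lie above 0 and 8 of the 12 genes over 4500 bases lie below it, while most squares lie above 0.

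Genes of the same pathways outside the 49 were counted in the same way. In 7 further lists of 150 cell cycle genes, 48 estimates were above 0 (32.0%), the median was -0.10, and 0 passed an adjusted p under 0.05 in limma (unadjusted p under 0.05 in 4 higher and 5 lower). Their median was 0.02 without EFTUD2 replicate 3, 0.00080 with median of ratios and 0.0097 with quantile normalization. Groups did not overlap in 8 that were higher and in 23 that were lower, shares of the 150 that lie below those of all genes tested (7.93% and 19.4%). The list nearest to the 49, other mitotic kinesins, spindle and midbody genes, had 18 of 28 estimates above 0 and a median of 0.07. It included NEK2, a centrosome kinase, at 11.5, 12.98 and 13.6 FPKM against 16.3, 16.0 and 17.8 FPKM, and PSRC1, a spindle protein, at 13.4, 10.3 and 11.5 FPKM against 14.7, 15.3 and 18.3 FPKM. Both had groups that did not overlap, with estimates of 0.37 and 0.42 (adjusted p = 0.402 from limma for each).

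On the values as deposited, the remaining 6 lists had medians below 0, as all genes tested did. Of 17 APC/C subunits and regulators, 1 estimate was above 0 and the median was -0.22, and 5 had groups that did not overlap and were lower (background 19.4%). CDC27, a core subunit, was at 28.4, 30.6 and 28.1 FPKM against 27.2, 26.2 and 14.9 FPKM, and ANAPC2, the cullin subunit, had an estimate of -0.41. Of 35 other centromere, kinetochore and passenger genes, 9 were above 0 (median -0.14), and the largest estimates were those of MAD2L1BP (-0.69) and MAD1L1 (-0.49), both of the spindle checkpoint. Of 18 other cohesin and condensin genes 5 were above 0 (median -0.15), with STAG1 at -0.48 and NCAPH2 at -0.42. Of 18 kinases and phosphatases of the G2 checkpoint and mitotic entry 4 were above 0 (median -0.12), with LATS1 at -0.53 and CHEK1 at -0.31. Of 15 MuvB, DREAM, B-MYB and NF-Y genes 2 were above 0 (median -0.12), with the pocket proteins RBL1 at -0.50 and RBL2 at 0.33. Of 19 G1 cyclins, CDKs and CDK inhibitors 9 were above 0 (median -0.05), with CDKN2B at -0.81 and CDKN2D at 0.47. Without EFTUD2 replicate 3 the median turned to 0.07 for the cohesin and condensin genes, 0.02 for the centromere, kinetochore and passenger genes and 0.07 for the G1 genes. It was then -0.11 for the APC/C genes, -0.07 for the G2 checkpoint genes and -0.03 for the MuvB, DREAM, B-MYB and NF-Y genes.

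The S phase and DNA replication genes had a much lower median than the 49 in EFTUD2 replicate 3. The 46 genes had medians of -0.22, 0.21 and 0.01 in the controls and 0.09, 0.17 and -0.64 in the EFTUD2 libraries, where the 49 genes had 0.15, 0.20 and -0.03. Their median log2 fold change was -0.11, and it was 0.13 without replicate 3, -0.0012 with median of ratios and 0.016 with quantile normalization. Of the 46 genes, groups did not overlap in 2 that were higher (background 7.93% of all genes tested) and in 0 that were lower (background 19.4%). RRM1, a subunit of ribonucleotide reductase, had the largest estimate (0.58) with 20.8, 31.7 and 26.5 FPKM against 45.9, 71.6 and 18.4 FPKM. GINS3, of the replicative helicase, had the lowest (-0.50). The difference between the lists was not tested.

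Hepatic markers moved with the split between libraries. The 20 markers of Hep G2 had medians of 0.27, -0.31 and 0.05 in the controls and 0.06, 0.09 and 0.55 in the EFTUD2 libraries, so control replicate 2, the highest control for 41 of the 49 genes, was the lowest in hepatic markers. All 20 were tested, their summed level ran from 12386 to 18858 FPKM in the controls and from 16673 to 23900 FPKM with EFTUD2, and none was at 0. Of 9 leukocyte and macrophage markers, TYROBP was at 0 in every library and PTPRC at no more than 0.02 FPKM, and the summed level, 775 to 2281 FPKM against 885 to 1749 FPKM, was almost wholly LYZ. CD68 was at 16.7 to 30.9 FPKM against 24.0 to 33.4 FPKM, and CD14, at 0.60 to 1.03 FPKM against 1.41 to 2.51 FPKM, was above every control in every EFTUD2 library. Of 7 endothelial markers the sum was 16.0 to 17.4 FPKM against 5.07 to 9.95 FPKM, mostly ESAM. ESAM and PECAM1 were below every control in each EFTUD2 library, CDH5 and VWF were above every control there at no more than 0.60 FPKM, and KDR was at no more than 0.01 FPKM. The 9 fibroblast markers summed to 0.53 to 1.65 FPKM against 2.35 to 4.91 FPKM, with COL1A2 at 0 throughout. The control sum was mostly PDGFRB, at 1.43, 0.41 and 1.05 FPKM against 1.10, 0.68 and 2.07 FPKM. COL3A1 was at 0 in every control and at 0.62, 1.49 and 0.14 FPKM with EFTUD2. COL1A1 was at 0.09 to 0.15 FPKM against 0.78, 2.05 and 0.11 FPKM. LUM was at no more than 0.01 FPKM against 0.35, 0.56 and 0.01 FPKM. DCN, PDGFRA, THY1 and FAP stayed at no more than 0.07 FPKM in every library. VIM was one of 6 genes listed, from earlier results of these data, as low in the controls and present with EFTUD2. It was at 0.06, 0.08 and 0.12 FPKM against 23.2, 59.6 and 2.87 FPKM. Of the 6, KRT17 was at 1.12 to 1.80 FPKM and KRT7 at 0.61 to 1.34 FPKM in the controls. KRT7 lay within the controls in EFTUD2 replicate 3 (0.78 FPKM). The part of these markers in the levels of the mitotic genes was not tested.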

How the data were processed

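Per the paper's methods, TRIzol RNA went through poly-A selection and BGISEQ-500 sequencing. The authors deposited FPKM per gene and library, with 2 decimals, for 6 libraries of Hep G2 (3 control, 3 EFTUD2), mapped by their labels. The submitters' processing notes name HISAT2, Bowtie2, RSEM, DESeq2 and hg38 without roles or versions, and the annotation and settings are not given in the sources used here. FPKM are already scaled to transcript length and library size. No common step between libraries was found in the low values (at most 2.67% of low genes shared a ratio to control replicate 1), so depth is unknown and no counting interval can be given. FPKM sums were 404342 to 434542.

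From the deposited FPKM, log2(FPKM + 1) was computed for the 17224 genes that averaged 0.1 FPKM or more in the 6 libraries. Groups were compared with limma 3.58.1 (lmFit, eBayes with trend) in R 4.3.3, with Benjamini-Hochberg adjustment over all genes tested at 0.05 and no covariates. limma was tested on simulated data. An exact permutation test, two-sided, was run for single genes. The lists were counted without a set test. The members and lists were chosen with earlier results of these data known. Genes named with every library were the 10 largest and 10 smallest estimates, up to 12 genes whose groups do not overlap, CCNB1, CDK1, MKI67, TOP2A, PLK1, AURKA, CDC20, FOXM1, CKS1B and CKS2, while from each other list the 2 largest estimates in size at an average of 1 FPKM or more were named, most by their estimate alone. CD14, CD68, CDH5, VWF, PECAM1, the named fibroblast genes, KRT7 and KRT17 are listed markers. BIRC5, PRC1, TTK, CDC25C, CCNA2, CCNB2 and SMC4 were described further as members after their values were seen. Transcript lengths came from GENCODE release 29 (longest coding transcript, 99.6% of protein-coding genes tested), and promoters from RefSeq, GRCh38.p14. Other steps used Python 3.11.15, pandas 2.3.3 and matplotlib 3.10.9.

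Alternatives were pseudocounts of 0.1 and 0.01, a filter at 1 FPKM or none, 3 scalings, robust eBayes, array weights, a block for the replicate number, each library left out in turn, and a shorter promoter window. Removal of each library's trend on transcript length was added after the data were seen.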

Additional observations from a re-analysis of the deposited data

How the results depend on the processing

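Pseudocounts, filters and robust eBayes left the counts and medians of the 49 genes as they were or within the spread of the library medians. Median of ratios, quantile normalization and removal of the length trend are given in that order. The median of EFTUD2 replicate 3 was 0.22, 0.20 and 0.24 in place of -0.03. Genes higher without overlap were 21, 22 and 24 (12.3%, 9.49% and 17.1% of the genes in each fit). Genes lower without overlap were 0, 0 and 0 in place of 2 (11.9%, 15.5% and 11.1%). The length trend was fitted to differences from the control mean, so its removal also took out each library's overall shift. That fit held 13478 protein-coding genes with a transcript length, not all 17224 genes tested. The median log2 fold change was 0.20 with median of ratios and 0.20 with the length trend removed, in place of 0.08. The median of all genes in the fit was 0.0058 and 0.032, in place of -0.07. A common sum per library went the other way, with 11 genes higher (6.85% of all), 3 lower (23.0%), a median of 0.03 (-0.10 for all genes) and -0.10 in EFTUD2 replicate 3. Array weights did not converge and rested mostly on control replicate 3 and EFTUD2 replicate 2. They called 4 of the 49 genes, 916 genes higher and 329 lower in all, and 3 genes of the other cell cycle lists. Weights estimated gene by gene called 4, 725, 630 and 7. When a library was left out, genes without overlap ran from 12 to 24 higher (24 without EFTUD2 replicate 3, 21 without control replicate 2, where all genes gave 14.7% and 9.75%) and from 2 to 3 lower, the median log2 fold change from 0.02 to 0.17, and the number of all genes called from 0 to 119 higher and 0 to 12 lower, with calls only without EFTUD2 replicate 3. The cause of these shifts was not tested. Same-numbered libraries correlated at -0.30, 0.35 and -0.09 in their deviations from the group means, so the numbers were not taken to pair them. The replicate block gave 0 calls and the same median, 0.08, with no other call changed. The shorter promoter window, 100 bases before the start, gave TTTGAA in 52.9% of promoters.

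Of 882 estimates of single genes under the alternatives, 792 kept their direction and their side of the threshold, 8 (of 5 genes) passed the threshold under array weights, and 82 (of 22 genes) changed sign, none of these 22 genes past the threshold in any setting. Array weights gave CDC25C -0.00010, CENPE 0.0061, GTSE1 0.11, HMMR 0.076, KIF11 0.17, KIF20B 0.15, KIF4A 0.075, NDC80 0.064 and SMC4 0.25. Array weights estimated gene by gene gave CENPE 0.0023, ECT2 0.016, GTSE1 0.066, HMMR 0.14, KIF11 0.14, KIF20B 0.13, NDC80 0.040 and SMC4 0.16. A common sum per library gave ANP32E -0.0032, CCNB1 -0.026, CDC20 -0.0049, CDC25C -0.030, CENPF -0.012, DLGAP5 -0.028, FOXM1 -0.035 and KIF23 -0.025. Median of ratios gave BIRC5 0.062, BUB3 0.018, GTSE1 0.058, HMMR 0.10, KIF11 0.0020, KIF4A 0.045 and SMC4 0.075. Quantile normalization gave GTSE1 0.078, HMMR 0.13, KIF11 0.037, KIF4A 0.078, NDC80 0.012 and SMC4 0.10. Removal of the length trend gave BIRC5 0.071, BUB3 0.040, CENPE 0.0034, ECT2 0.0050, GTSE1 0.079, HMMR 0.12, KIF11 0.030, KIF4A 0.074 and SMC4 0.10. With a library left out, the log2 fold changes that changed sign ran as follows: ANP32E -0.034 to 0.18, CCNB1 -0.13 to 0.21, CDC20 -0.068 to 0.15, CDC25C -0.060 to 0.068, CENPE -0.25 to 0.043, CENPF -0.11 to 0.31, DLGAP5 -0.090 to 0.16, FOXM1 -0.14 to 0.19, GTSE1 -0.19 to 0.14, HMMR -0.088 to 0.095, KIF11 -0.26 to 0.15, KIF20B -0.43 to 0.15, KIF23 -0.076 to 0.12, KIF4A -0.17 to 0.056, MAD2L1 -0.026 to 0.19, NDC80 -0.22 to 0.031, SMC4 -0.18 to 0.17, TACC3 -0.048 to 0.22 and TPX2 -0.0044 to 0.11. The depth of the libraries is unknown.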
